A study of Mus musculus with 6 samples.

Results

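The megalin-cubilin system, the receptors and helpers through which the proximal tubule takes up filtered proteins and vitamins, was examined in RNA sequencing of whole mouse kidney. Its 10 genes (Lrp2, Cubn, Amn, Dab2, Lrpap1, Clcn5, Ocrl, Tcn2, Folr1 and Rbp4) were named by symbol, and all 10 were found among the 24422 genes of the count tables and among the 15171 genes that passed the filter on low counts. The kidneys came from C57BL/6 mice at postnatal day 60 on an iron sufficient diet of 220 ppm iron. The 3 control mice were wild type. The 3 TfR1KO;KspCre mice (genotype Tfr1f/f;KspCre, here called knockouts) carried floxed alleles of the transferrin receptor gene together with a Cre under the Ksp-cadherin promoter. That promoter is active in the distal nephron, so the proximal tubule, where megalin and cubilin act, is not the segment the Cre was meant for.

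Megalin, the product of Lrp2, and cubilin, the product of Cubn, are very large receptors on the apical brush border of the proximal tubule. Cubilin has no membrane-spanning part of its own and reaches the surface with amnionless, the product of Amn. Bound proteins enter through clathrin-coated pits, are released in acidified endosomes, and the receptors recycle to the surface. Loss of this uptake is known as tubular proteinuria, and it occurs when the endosomal genes Clcn5 or Ocrl are mutated.

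Library totals ran from 11501053 counts in knockout 3 to 21001341 in control 1. Libraries stood apart in 2 ways that bear on the values here. Control 2 held 52 counts of Xist and 3980 of the Y-linked genes Ddx3y, Eif2s3y, Kdm5d and Uty together, whereas the other 5 libraries held at least 10458 of Xist and at most 5 of those. Knockout 1 lay between the groups on the first principal component of expression, at 9.67, with the controls between -72.6 and -53.2 and the other knockouts at 82.1 and 88.6. Tfrc itself gave no check of the labels, since its log2 fold change was -0.11 (SE 0.62; edgeR, adjusted p 0.911). It stood at 138, 168 and 62.0 CPM in controls 1 to 3 and at 214, 86.0 and 40.6 CPM in knockouts 1 to 3, so that knockout 1 was the highest of the 6 libraries and knockout 3 the lowest.

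Of the 10 genes, 5 fell in knockouts and 0 rose (edgeR's quasi-likelihood test, adjusted p under 0.05 over all genes tested). Megalin and cubilin fell the furthest, to 18.6% and 20.3% of the control mean, while the chaperone Lrpap1, the adaptor Dab2 and the cobalamin carrier Tcn2 fell to between 33.6% and 43.0% of it. Among all tested genes 17.2% were called, 6.64% lower and 10.6% higher. Amn and Folr1 were lower in every knockout than in every control without passing the threshold, and Clcn5, Ocrl and Rbp4 overlapped between the groups. In all, 7 of the 10 genes had every knockout below every control, which 22.2% of tested genes did in that direction and 23.8% in the other. At an unadjusted p under 0.05 there were the same 7 genes lower and 0 higher, where 17.6% of all tested genes were lower. In whole kidney, fewer cells of a type and less RNA per cell cannot be told apart.

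**Figure D1:**
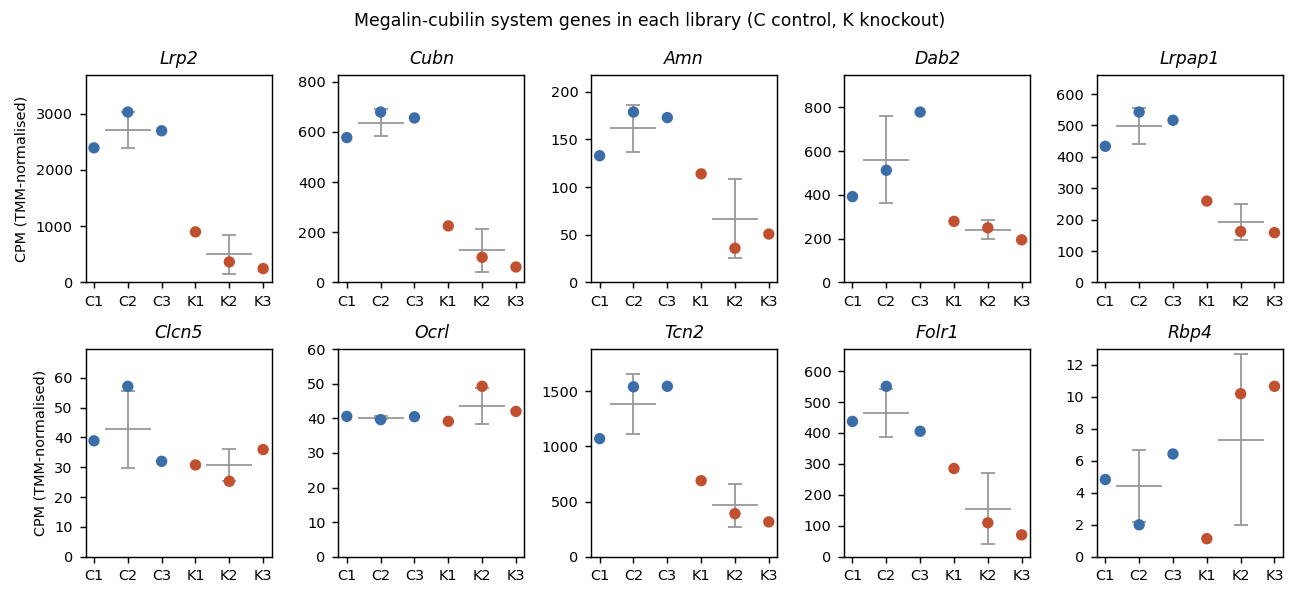
TMM-normalised counts per 1000000 (CPM, vertical axes from 0) of the 10 genes in control libraries 1 to 3 (C1 to C3, blue) and knockout libraries 1 to 3 (K1 to K3, red); grey bars are group means ± SD (n = 3). For Lrp2, Cubn, Amn, Dab2, Lrpap1, Tcn2 and Folr1 all red points lie below all blue points, whereas Clcn5, Ocrl and Rbp4 overlap.

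The calls were near the threshold and changed with the libraries included. Without control 2, 0 of the 10 genes were called, and 7 still had an unadjusted p under 0.05, as 27.4% of all genes tested in that fit had. The count was also 0 without control 1, control 3, knockout 2 or knockout 3, with 6 or 7 genes at an unadjusted p under 0.05. In that order, 4808 of 15518, 4823 of 15624, 4604 of 15408 and 4456 of 15439 tested genes had such a p. Of all tested genes 0, 0, 73 and 2 were called. Without knockout 1 it was 7, as Amn and Folr1 joined the 5, and 34.4% of all genes were called. Over all tested genes these fits called between 0 and 5332 genes. DESeq2, which the study names in a supplementary figure legend, called 7 of the 10 by its Wald test, all lower, and 15% of all tested genes lower.

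Lrp2 (ENSMUSG00000027070; chromosome 2, 69262397 to 69424122, minus strand, mm9) stood at 2392, 3028 and 2694 CPM in controls 1 to 3. In knockouts 1 to 3 it stood at 899, 365 and 247 CPM. All knockouts were below all controls, and knockout 1 kept more megalin RNA than the other knockouts. The group means were 2705 ± 318.2 and 503.6 ± 347.2 CPM (SD, n = 3 each), a 5.37-fold difference, with a log2 fold change of -2.42 whose SE was 0.52 (edgeR, adjusted p 0.0326). It was -2.35 without control 2 (adjusted p 0.118) and -3.15 without knockout 1 (adjusted p 0.00229).

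Cubn (ENSMUSG00000026726; chromosome 2, 13197965 to 13413551, minus strand) was at 577, 679 and 656 CPM in the controls and at 225, 100.3 and 61.7 CPM in the knockouts. The libraries kept the order they had for megalin within the knockouts. The log2 fold change was -2.30 (SE 0.47; edgeR, adjusted p 0.0316), -2.27 without control 2 and -2.98 without knockout 1. An antisense gene, Gm13270, overlaps Cubn in the annotation, and whether the counting used strand was not given in the sources used here.

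The Lrp2 and Cubn transcripts are the longest of the 10, at 15460 bases in 79 exons and 11373 bases in 67 exons. The 101 tested genes with a transcript of at least 12000 bases had a median log2 fold change of -0.04, and the 470 genes between 8000 and 12000 bases had one of 0.03. Of the first 10 were called lower and 5 higher, and of the second 31 lower and 43 higher. The part of transcript length in the Lrp2 and Cubn values was not tested.

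Amn (ENSMUSG00000021278; chromosome 12, 112509322 to 112514637, plus strand), the membrane partner of cubilin, was at 133, 179 and 173 CPM in the controls. It was at 114, 35.9 and 50.8 CPM in the knockouts. Knockout 1 therefore lay close under the lowest control, and the other knockouts were far below. The log2 fold change of -1.27 (SE 0.42) did not pass (edgeR, adjusted p 0.0724). It was -1.91 and passed without knockout 1 (adjusted p 0.00325).

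The promoters of these 3 receptor genes are shown because Lrp2 and Cubn had nearly the same profile over the libraries while their start regions differ in base composition. The sequences are from RefSeq on GRCm38.p6, run 5′ to 3′ on the strand of the gene, and cover 250 bases before to 50 bases after the start of transcription. Capitals mark CpG dinucleotides. The Lrp2 promoter is at chr2:69585980-69586279 on the minus strand, the Cubn promoter at chr2:13491827-13492126 on the minus strand, and the Amn promoter at chr12:111270846-111271145 on the plus strand.
Lrp2: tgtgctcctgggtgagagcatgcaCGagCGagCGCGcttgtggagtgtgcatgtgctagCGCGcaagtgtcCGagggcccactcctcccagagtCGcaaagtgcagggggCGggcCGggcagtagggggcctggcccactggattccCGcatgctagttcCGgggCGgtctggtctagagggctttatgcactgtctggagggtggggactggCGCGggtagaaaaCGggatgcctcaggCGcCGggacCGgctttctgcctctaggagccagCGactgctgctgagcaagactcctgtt
Cubn: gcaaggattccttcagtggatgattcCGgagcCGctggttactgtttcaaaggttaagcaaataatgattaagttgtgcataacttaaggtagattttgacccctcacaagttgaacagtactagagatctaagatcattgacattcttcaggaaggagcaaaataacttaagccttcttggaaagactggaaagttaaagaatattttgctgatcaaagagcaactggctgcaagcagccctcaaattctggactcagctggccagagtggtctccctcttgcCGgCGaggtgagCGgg
Amn: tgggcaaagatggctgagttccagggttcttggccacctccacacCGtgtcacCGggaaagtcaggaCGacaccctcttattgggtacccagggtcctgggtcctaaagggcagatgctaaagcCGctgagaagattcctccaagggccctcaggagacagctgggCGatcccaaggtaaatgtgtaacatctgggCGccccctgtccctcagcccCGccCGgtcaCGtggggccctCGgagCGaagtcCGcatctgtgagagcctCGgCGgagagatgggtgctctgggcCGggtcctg

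The Lrp2 window was 65.0% G and C with 20 CpG, and the Amn window 62.3% with 15. The Cubn window was 44.3% with 5. Over the 32851 promoters searched, none on chromosome 18, the mean was 53.8% and the median number of CpG was 7. Of the 10 genes 8 had an entry, and Tcn2 and Folr1 had none. The HNF4 letters CAAAGTCCA, searched on both strands, were in 0.475% of all promoters and in none of these windows. The E-box letters CACGTG, on either strand, were in 7.15% of all promoters and lay 26 bases before the Amn start.

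Dab2 (ENSMUSG00000022150; chromosome 15, 6249788 to 6390712, plus strand) encodes the clathrin adaptor that binds the cytoplasmic tail of megalin. It was at 392, 512 and 778 CPM in the controls and at 279, 249.6 and 195 CPM in the knockouts. The controls spread widely, with control 3 the highest, and the knockouts lay close together below them. Its log2 fold change was -1.22 (SE 0.30; edgeR, adjusted p 0.0397), and -0.92 without control 3 (adjusted p 0.09999). Dab2 is also made by macrophages and fibroblasts. Of 9 macrophage markers 8 rose, and their summed level went from between 172 and 185 CPM in controls to between 408 and 1307 CPM in knockouts. Of 8 fibroblast markers 3 rose, from a sum of between 301 and 653 CPM to one of between 982 and 3798 CPM. No marker in these lists was at 0 in all libraries, and their part in the Dab2 value was not tested. Gm16311 overlaps Dab2 on the opposite strand.

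Lrpap1 (ENSMUSG00000029103; chromosome 5, 35434139 to 35448415, minus strand) encodes the receptor-associated protein, a chaperone that keeps ligands off megalin in the endoplasmic reticulum. It was at 434, 543 and 516 CPM in the controls and at 259, 162 and 159 CPM in the knockouts. Knockout 1 was again the highest knockout, and all knockouts lay well below the lowest control. The difference was -1.36 on the log2 scale (SE 0.25; edgeR, adjusted p 0.0295) and had the smallest adjusted p of the 10 genes.

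Clcn5 (ENSMUSG00000004317; X chromosome, 6730936 to 6896484, minus strand) encodes a chloride-proton exchanger of endosomes whose loss in people is Dent disease. It was at 38.9, 57.1 and 32.0 CPM in the controls and at 30.8, 25.3 and 35.9 CPM in the knockouts. The groups overlapped, and control 2 was the highest library. Its log2 fold change of -0.48 (SE 0.25) did not pass (edgeR, adjusted p 0.195), and it was -0.22 without control 2.

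Ocrl (ENSMUSG00000001173; X chromosome, 45265564 to 45319045, plus strand) encodes the phosphoinositide phosphatase lost in Lowe syndrome. It was at 40.5, 39.6 and 40.5 CPM in the controls and at 39.1, 49.2 and 42.0 CPM in the knockouts. These were the closest replicates among the 10 genes. The difference for Ocrl was 0.11 on the log2 scale (SE 0.13; edgeR, adjusted p 0.562). It was 0.0107 without knockout 2 and 0.17 without knockout 1. With library size alone it was 0.39, when the median of all genes moved up by 0.27.

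**Figure D2:**
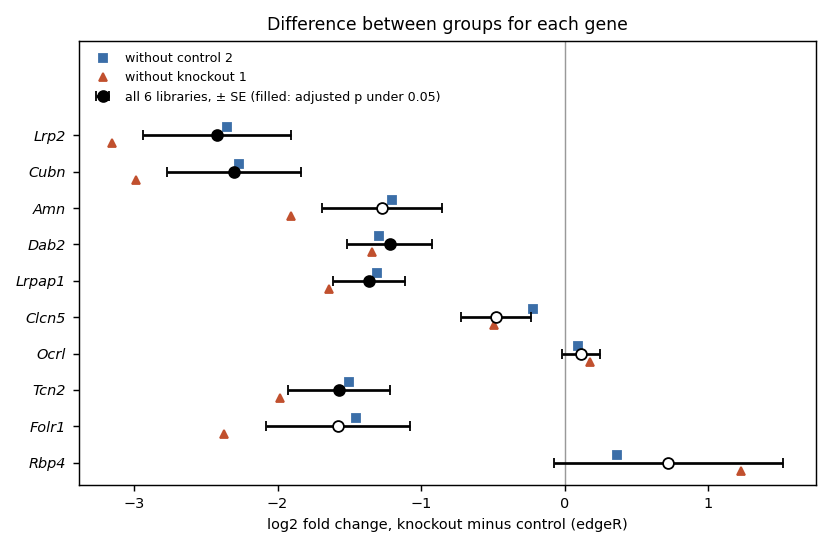
The log2 fold change of each gene, knockout minus control (horizontal axis, edgeR), with its SE over all 6 libraries (circles, filled where the adjusted p was under 0.05), without control 2 (squares) and without knockout 1 (triangles). Lrp2 (-2.42) and Cubn (-2.30) lie furthest to the left, Clcn5 (-0.48) and Ocrl (0.11) lie nearest to 0, and leaving out knockout 1 moved Lrp2 to -3.15.

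Of the 3 carrier genes, Tcn2 and Folr1 had nearly the same log2 fold change (-1.57 and -1.58), and Rbp4 overlapped between the groups. Tcn2 (ENSMUSG00000020432; chromosome 11, 3817195 to 3832162, minus strand) encodes transcobalamin, which carries cobalamin in plasma and is itself a ligand of megalin. It was at 1069.6, 1539 and 1543 CPM in the controls and at 689, 390.0 and 316 CPM in the knockouts. The groups were well separated. The difference for Tcn2 was -1.57 on the log2 scale (SE 0.36; edgeR, adjusted p 0.0356).

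Folr1 (ENSMUSG00000001827; chromosome 7, 109006845 to 109019302, minus strand) encodes the folate receptor of the brush border. It was at 437, 551 and 406 CPM in the controls and at 285, 109.8 and 70.8 CPM in the knockouts. The groups did not overlap, but the knockouts spread over a wide range. The log2 fold change of -1.58 (SE 0.50) was as large as that of Tcn2 and did not pass (edgeR, adjusted p 0.0679). It was -2.37 without knockout 1 (adjusted p 0.00292).

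Rbp4 (ENSMUSG00000024990; chromosome 19, 38191110 to 38199811, minus strand) encodes the plasma retinol-binding protein, a megalin ligand made mainly in liver. It was at 4.83, 2.00 and 6.42 CPM in the controls and at 1.13, 10.2 and 10.6 CPM in the knockouts. Knockout 1 was the lowest library, and the other knockouts were above all controls. Raw counts were between 23 and 203. Its log2 fold change was 0.72 (SE 0.80; edgeR, adjusted p 0.532), and 1.23 without knockout 1 (adjusted p 0.0896). It was 0.37 without control 2, 0.39 without knockout 2, 0.35 without knockout 3 and 0.23 with limma-voom.

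Levels were compared between genes per kilobase of each gene's longest coding transcript. In controls Tcn2 was the highest, at 683 ± 134 CPM per kilobase, followed by Folr1 at 336 ± 55.2 (SD, n = 3 each). Next came Lrp2 (175 ± 20.6), Lrpap1 (166 ± 19.0), Dab2 (120.3 ± 42.4), Amn (95.9 ± 14.8) and Cubn (56.0 ± 4.69). Neighbours from Lrp2 to Amn in this order lay within the sum of their SDs of each other. Ocrl (7.65 ± 0.0986), Clcn5 (5.08 ± 1.55) and Rbp4 (3.55 ± 1.803) were far lower, and the last pair also lay within the sum of their SDs. In knockouts Lrp2 stood at 32.6 ± 22.5 and Lrpap1 at 64.6 ± 19.0 CPM per kilobase, so that megalin RNA, level with that of its chaperone in controls, had a mean below it.

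These shifts were followed as log2 ratios within each library, which do not depend on the scaling of the libraries. A total of 15 ratios were compared, 10 of the genes to markers of the proximal tubule and 5 between partners, by an exact two-sided permutation test. With 3 against 3 libraries the smallest p this test can give is 0.1, which is 0.136 after Benjamini-Hochberg adjustment over the 15, so none could pass.

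Cubilin and megalin kept nearly the same proportion. The log2 ratio of Cubn to Lrp2 was -2.05, -2.16 and -2.04 in controls and -1.995, -1.86 and -1.997 in knockouts, a difference of 0.13 with every knockout above every control (exact permutation p 0.1), and 0.09 without knockout 2. The ratios of the other partners to the receptors differed by more, also with every knockout above every control. The log2 ratio of Amn to Lrp2 went from -4.07 ± 0.10 to -2.87 ± 0.54 (SD, n = 3 each), a 2.30-fold higher ratio. Those of Dab2 and Lrpap1 to Lrp2 were 2.75-fold and 2.36-fold higher, and that of Amn to Cubn 2.10-fold higher. Each of these 4 ratios had an exact permutation p of 0.1, the smallest possible.

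**Figure D3:**
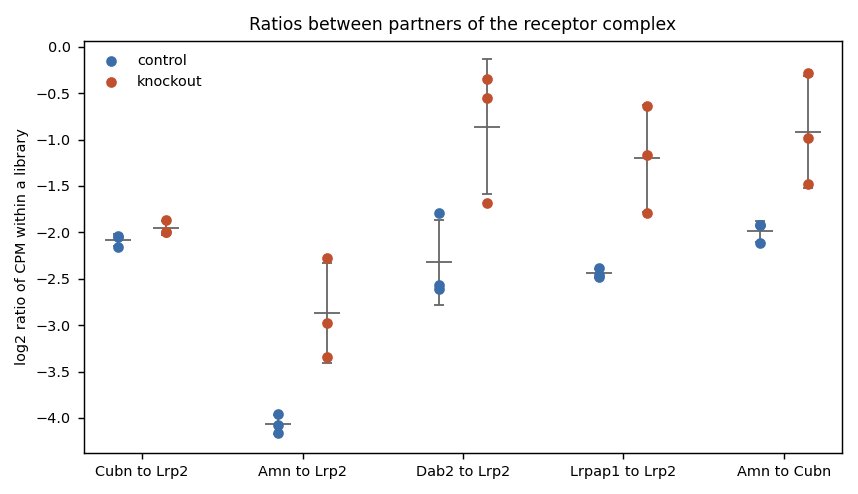
Log2 ratios of CPM between partners within each library (vertical axis), for controls (blue) and knockouts (red), with grey bars for group means ± SD (n = 3). The ratio of Cubn to Lrp2 differed by 0.13 between the groups, and the other 4 differed by between 1.07 and 1.46.

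A list of 21 proximal tubule markers, most of them solute carriers and enzymes, was set beside the genes. It also holds Aqp1, a water channel, and Kl, which other parts of the nephron make too. Of the 21, 13 fell and 0 rose (edgeR), all were lower by sign, with a median log2 fold change of -1.94, against 0.02 over all tested genes. Their summed level was between 21804 and 29714 CPM in controls and 12208, 5402 and 3894 CPM in knockouts 1 to 3. Knockout 1 kept the most of them, as it did of megalin. Of 9 markers of injured tubule 8 rose, from a sum of between 1248 and 3254 CPM to one of between 4754 and 8265 CPM. A set of kidney genes known to differ between the sexes summed to 6694, 33630 and 12387 CPM in controls 1 to 3, and to 1660, 161 and 519 CPM in knockouts 1 to 3, with 3 of 7 tested called lower. Most of each sum was Kap, at 6180, 31293 and 11964 CPM in the controls and 1539, 102 and 475 CPM in the knockouts. The 7 markers of the thick ascending limb, in the distal nephron, had a median log2 fold change of -1.46, with 6 lower by sign and 0 called (edgeR; 2 at an unadjusted p under 0.05). Their sum was between 5492 and 12000 CPM in controls and 7067, 947 and 1264 CPM in knockouts 1 to 3. The part of any of these lists in the values of the megalin-cubilin genes was not tested.

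Relative to the mean log2 level of those markers, Lrp2 and Cubn were lower in every knockout than in every control, by 0.66 and 0.53 on the log2 scale. The log2 fold changes of the markers themselves ran from -2.78 to -0.37 (edgeR), and those of Lrp2 (-2.42) and Cubn (-2.30) lay within that range. Lrpap1 and Tcn2 were higher relative to the markers in every knockout, by 0.58 and 0.34. Clcn5 and Ocrl were higher relative to them by 1.53 and 2.08. With the mean of the markers each of these 6 ratios had the smallest possible exact permutation p of 0.1. With their median the groups overlapped for Lrpap1 (0.40, exact permutation p 0.3) and Tcn2 (0.17, exact permutation p 0.4). Without knockout 3 the differences for Lrpap1 and Tcn2 were 0.34 and 0.21. Amn (0.54), Dab2 (0.80), Folr1 (0.15) and Rbp4 (2.31) overlapped between the groups on this measure, with exact permutation p of 0.4, 0.2, 0.6 and 0.3. The sign for Folr1 turned to -0.02 with the median of the markers in place of the mean, and to -0.0073 without control 3. Amn was 0.29 without knockout 3 and 0.85 without knockout 2, and Rbp4 was 1.42 without knockout 3 and 3.76 without knockout 1.

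**Figure D4:**
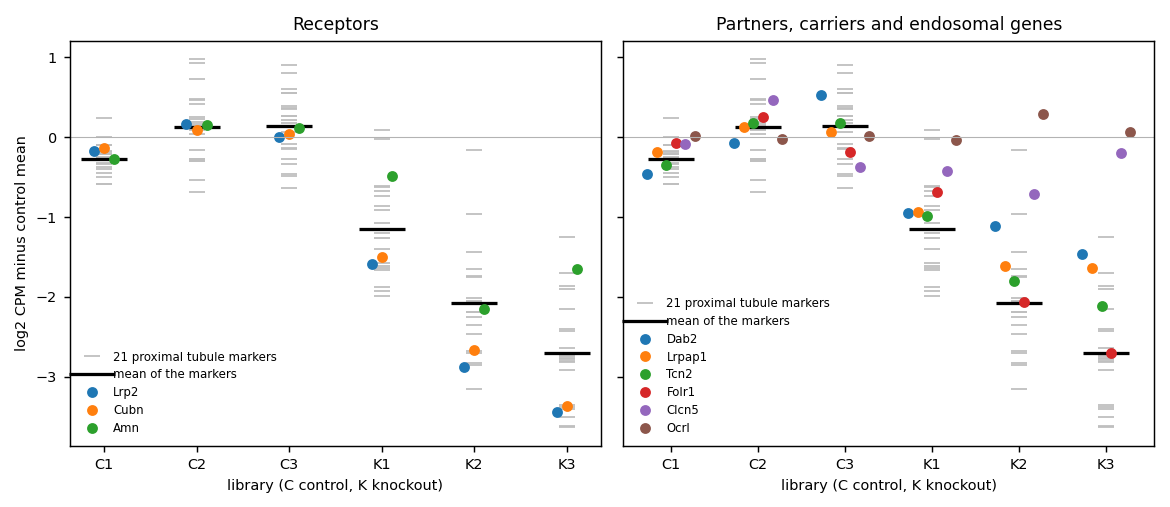
Log2 CPM minus the control mean (vertical axis) in each library for the receptor genes (left) and for 6 other genes of the system (right; Rbp4 is not drawn), with the 21 proximal tubule markers as grey dashes and their mean as a black bar. In the knockouts Lrp2 and Cubn lie under the black bar and Lrpap1, Tcn2, Clcn5 and Ocrl above it.

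The likeness of other genes to megalin was measured as the root mean square difference from Lrp2 over the 6 libraries, in log2 CPM centred on each gene's mean. Among 11337 tested genes whose average log2 CPM was 3 or more, the nearest was Cubn, at 0.0872. Then came Acsm5, an acyl-CoA synthetase (0.105), Aldh8a1, an aldehyde dehydrogenase (0.129), Aspa, which cleaves acetylaspartate (0.137), and Bhmt2, a homocysteine methyltransferase (0.143). In the same order Folr1 was number 116, Tcn2 256, Amn 428, Lrpap1 468, Dab2 868, Clcn5 3198 and Ocrl 7021. All these profiles come from the same 6 libraries and contain the difference between the groups.

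Other genes of the uptake route were taken from lists by function. Over all tested genes DESeq2 called 4882 of 15171 in either direction, and 17.6% were lower at an unadjusted p under 0.05 (edgeR). Of 10 tested relatives of megalin in the LDL receptor family, 0 were called by edgeR, 1 had an unadjusted p under 0.05 and DESeq2 called 1. Their median log2 fold change was -0.26. Lrp1, the broadly expressed family member, averaged 108.7 ± 40.8 CPM in controls against 262 ± 167 CPM in knockouts (SD, n = 3 per group), with a log2 fold change of 1.27 (SE 0.51; adjusted p 0.117). The clathrin coat and its adaptors gave 0 calls of 19 in edgeR, with 5 genes at an unadjusted p under 0.05, 3 lower and 2 higher. DESeq2 called 3 of the 19, and their median was -0.11. Among them Myo6, the myosin that moves coated vesicles inward, had a log2 fold change of -0.80 (adjusted p 0.0582). With library size alone the medians of both lists were above 0, at 0.0092 and 0.16. Without control 3 the median of the LDL receptor family was -0.14, and with no filter on low counts it was -0.45. That of the clathrin list was -0.07 without control 2 and -0.05 without knockout 3.

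Of 21 genes of early and recycling endosomes 2 fell and 0 rose (edgeR), 19 were lower by sign, and the median was -0.30. Over all tested genes 6.64% were called lower and the median was 0.02. With library size alone this list had 1 call and a median of -0.03. DESeq2 called 7, beside 4882 of 15171 over all tested genes in either direction. Rab11fip3, an effector of recycling endosomes, fell by 1.64 on the log2 scale (SE 0.32; adjusted p 0.0309) and Vps29, a retromer subunit, by 0.56 (adjusted p 0.0448). Of 21 tested genes of endosomal ion exchange and the vacuolar proton pump 2 fell and 0 rose (edgeR), and 15 had every knockout below every control, which 22.2% of all tested genes did, with a median of -0.47. With library size alone 0 were called and the median was -0.20, and DESeq2 called 8, beside the same share over all tested genes. Clcn3, which encodes an exchanger of endosomes, was among the 2 that fell (-0.79, adjusted p 0.0460). Slc9a3, the brush border sodium-proton exchanger, had the lowest log2 fold change of the list, -2.51, with an SE of 0.91 (adjusted p 0.0900).

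Ligands and vitamin genes went both ways. Of 20 tested, 3 fell and 2 rose (edgeR), beside 6.64% lower and 10.6% higher over all tested genes, and the median was -0.45. DESeq2 called 11, beside 4882 of 15171 over all tested genes in either direction. With library size alone 7 were called, beside 3647 of 15171, and the median was -0.18. Without control 3 the median was -0.24. The folate transporters Slc19a1 and Slc46a1 fell by 1.04 and 1.07 on the log2 scale (adjusted p 0.0346 and 0.0443), beside Pth1r, the parathyroid hormone receptor, which fell by 1.24 (adjusted p 0.0480). B2m, a filtered ligand and a subunit of MHC class I, rose by 1.27 (adjusted p 0.0478). Stra6, the receptor for Rbp4, had a log2 fold change of 1.61 that did not pass (adjusted p 0.0629).

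Transcription factors of the proximal tubule had the largest share of calls among these lists, with 5 of 8 lower and 0 higher (edgeR) and a median of -1.22. Hnf4a averaged 742 ± 117 CPM in controls against 246 ± 128 CPM in knockouts (SD, n = 3 per group), or -1.59 on the log2 scale (SE 0.38; adjusted p 0.0380). Log2 fold changes of the others named here were -1.66 for Ppara (adjusted p 0.0317), -1.59 for Nr1h4 (adjusted p 0.0297) and -1.06 for Hnf4g (adjusted p 0.0371). Over the 6 lists together 14 of 99 tested genes were called (14.1%), below the 17.2% of all tested genes. That order turned in other fits. DESeq2 called 36 of the 99, beside 4882 of 15171 over all genes. Without knockout 1 edgeR called 40.4% of the 99, above the 34.4% of all genes. Without control 2 none of the 99 was called, and 27 had an unadjusted p under 0.05 (27.3%), as 27.4% of all genes had.

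**Figure D5:**
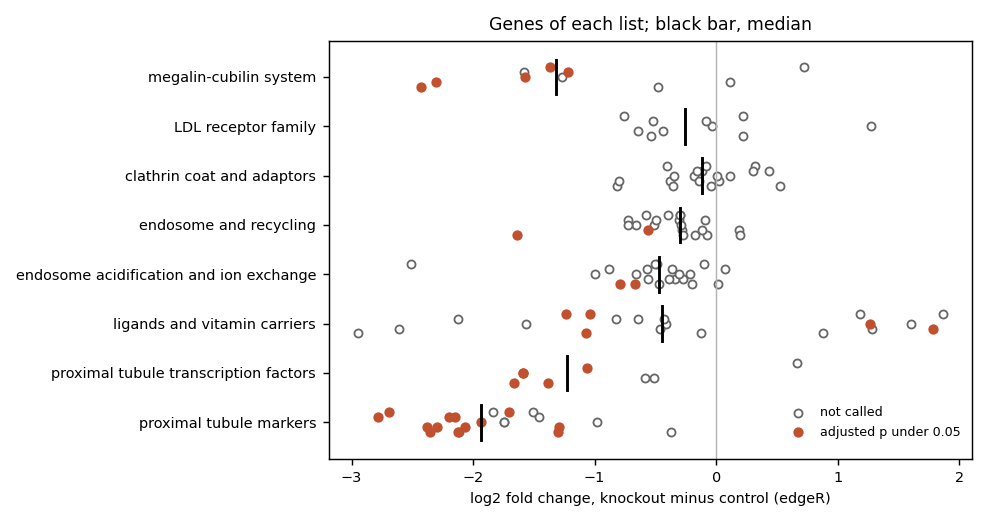
The log2 fold change, knockout minus control (horizontal axis, edgeR), of every tested gene of the megalin-cubilin system, of the 6 lists of related genes and of the proximal tubule markers; red points had an adjusted p under 0.05 and black bars are medians. The medians were -1.32 for the megalin-cubilin system and -1.94 for the markers, against values between -0.47 and -0.11 for 5 of the 6 lists and -1.22 for the transcription factors.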

How the data were processed

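RNA from whole kidneys of 3 control and 3 knockout mice, described as biological replicates, was sequenced by the authors. They deposited raw counts per gene in 2 tables, 1 of the control and 1 of the knockout libraries, made, per the submitters' processing notes, with CASAVA 1.8.2, Trimmomatic, TopHat2 2.0.11 and HTSeq on mm9. The annotation and strand setting of the counting were not given in the sources used here.

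The deposited counts were tested with edgeR 4.0.16 in R 4.3.3 (quasi-likelihood test, TMM scaling, filterByExpr with a minimum count of 10 and a minimum total of 15, Benjamini-Hochberg adjustment over 15171 genes). The edgeR fit had first been run on simulated counts, and the permutation test on an example with a known answer. The other steps were not run on simulated data. The SE was derived from the F statistic and the log2 fold change. CPM are TMM-normalised, and log2 CPM used a prior count of 2. Alternatives were DESeq2 1.42.0, limma 3.58.1 (voom), other scalings and filters, each library left out, the replicate number as a block, and the Xist to Y ratio as a covariate. Gene positions were read from the GENCODE M1 annotation of NCBIM37, the same build as mm9. Promoters came from RefSeq on GRCm38.p6.

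The members and lists were chosen with earlier results of these data known. Text names all 10 members, up to 5 called genes per list and the 5 genes nearest to Lrp2. Some called list genes are counted but not reported here by name. Lrp1, Myo6, Slc9a3 and Stra6, which were not called, were chosen after their values were seen. Totals of 11501053 to 21001341 counts set the depth. Sexes of the mice are not in the labels.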

Additional observations from a re-analysis of the deposited data

How the results depend on the processing

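The 10 log2 fold changes kept their sign in all 16 alternatives, and adjusted p was under 0.05 in 9 of 16 for Lrp2, Cubn, Dab2, Lrpap1 and Tcn2. The number of members called was 0 to 7 with 1 library left out, 0 with the replicate block and 0 with the Xist to Y ratio as covariate, where 7 members had an unadjusted p under 0.05 in both fits. Over all genes 2612 were called, against 4882 with DESeq2, 0 to 5332 with 1 library left out, and 0 with the block (5432 at an unadjusted p under 0.05) or the covariate (4221). Of the 99 tested list genes 14 were called (14.1%, against 17.2% of all genes), 36 with DESeq2, 0 to 40 with 1 library left out (40.4% without knockout 1, against 34.4% of all genes), and 0 with the block or the covariate. Deviations of same-numbered libraries from their group means had correlations of -0.13, 0.01 and 0.21. With 3 libraries per group these values cannot show whether same-numbered libraries share a litter or a batch. The labels name no pairing. Of all calls 61.4% were higher in knockouts, 81.8% with library size alone. The log2 difference of Folr1 to the markers, 0.15, was -0.0202 with the median of the markers and ran from -0.0073 to 0.25 with 1 library left out. The causes were not tested.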
